A study of Mus musculus with 12 samples.

Results

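Expression of 9 marker genes of enteroendocrine and tuft cells was examined in mouse intestinal tumor organoids, and 4 of them exceeded 1 FPKM in at least 1 library. The genes were Chga, Chgb, Neurod1, Neurog3 and Cck for enteroendocrine cells and Dclk1, Pou2f3, Trpm5 and Avil for tuft cells. They were chosen by name as markers of these cell types and are 9 of the 24906 genes listed in the expression tables. Organoids came from intestinal tumors of Smad4KO BRAFV600E/+ mice, in which a Villin-driven, tamoxifen-inducible Cre had removed Smad4 and switched on BRAFV600E in the gut epithelium. All 12 libraries, controls included, therefore carry loss of Smad4 and the BRAF allele. Their genotype labels also name a lentiviral pINDUCER-SMAD4 construct for doxycycline (dox) dependent expression of SMAD4, although for the mock library of line 682 the labels conflict. RNA-Seq was done after 48 h with 4 μg/mL dox or without it, in BME R1 (a basement membrane extract for 3D culture) or on tissue culture plastic. The 6 BME libraries comprise organoid lines 682, 700 and 889 without dox, lines 700 and 889 with dox, and line 682 once more under the treatment label dox (Mock). The 6 plastic libraries comprise lines 560, 700 and 889, each without and with dox. All organoids were kept in a medium with EGF, Noggin and R-spondin. Whether each line came from 1 animal is not given in the sources used here, so p-values measure the spread between these lines and cultures.

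Enteroendocrine and tuft cells are rare secretory and sensory cells of the intestinal epithelium. Enteroendocrine progenitors pass through a brief stage marked by the transcription factor Neurog3, after which Neurod1 is switched on and mature cells store hormones such as cholecystokinin (Cck) in granules rich in chromogranins (Chga, Chgb). Tuft cells depend on the POU-domain factor Pou2f3, use a taste-like signaling cascade that ends in the cation channel Trpm5, and carry the actin-bundling protein advillin (Avil) and the kinase Dclk1 as markers. Levels are given as FPKM, fragments per kilobase of transcript scaled to library depth, with the whole reads behind them rebuilt from the tables. The BME and plastic tables were each normalized on their own, so levels set side by side across them are not tested against each other.

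Promoter sequence is shown for 3 of the 4 expressed genes, and its part in their levels was not tested. The bases are the 250 before the RefSeq transcription start on GRCm38.p6, in the direction of the gene, and a RefSeq entry was matched for 8 of the 9 genes, with Pou2f3 not among them. Capitals mark the octamer core ATGCAAA or its reverse complement TTTGCAT, the kind of motif bound by POU factors of the class of Pou2f3. The Neurog3 promoter lies at chr10:62132840-62133089 on the plus strand, that of Trpm5 at chr7:143094643-143094892 on the minus strand and that of Avil at chr10:127000459-127000708 on the plus strand.
Neurog3: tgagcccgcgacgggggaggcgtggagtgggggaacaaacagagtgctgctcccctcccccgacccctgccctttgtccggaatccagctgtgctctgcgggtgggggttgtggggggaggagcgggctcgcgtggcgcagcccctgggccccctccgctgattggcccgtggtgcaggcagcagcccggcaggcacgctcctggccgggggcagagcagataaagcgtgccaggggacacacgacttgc
Trpm5: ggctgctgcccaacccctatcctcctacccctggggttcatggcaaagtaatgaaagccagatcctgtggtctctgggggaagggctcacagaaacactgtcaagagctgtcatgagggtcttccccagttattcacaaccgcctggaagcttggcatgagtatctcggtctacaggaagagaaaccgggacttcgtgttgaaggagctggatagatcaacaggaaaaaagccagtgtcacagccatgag
Avil: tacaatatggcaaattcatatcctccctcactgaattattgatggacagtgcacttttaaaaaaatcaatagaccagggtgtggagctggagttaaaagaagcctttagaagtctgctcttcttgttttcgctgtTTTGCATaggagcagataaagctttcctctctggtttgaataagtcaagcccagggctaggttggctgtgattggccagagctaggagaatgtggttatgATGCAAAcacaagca
The octamer core was found at 2 places in the Avil window, starting 115 and 15 bases before the transcription start, and at 1 place in that of Cck, 171 bases before it. It was not found in the windows of Neurog3 and Trpm5. Among 32851 mouse promoters of the same length, 4.12% held the octamer core on either strand. The E-box letters CAGATG or CATCTG, of the kind bound by Neurog3 and Neurod1, were in the Cck window and in 14.4% of all windows. The SMAD box letters CAGAC or GTCTG were in those of Avil and Neurod1 and in 42.2% of all windows. A match here describes the letters and is not evidence of binding.

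Smad4 was checked first, since the comparison turns on its induction. In BME, Smad4 was at 6.53 FPKM without dox and 17.2 with dox in line 700, and at 6.23 and 27.3 in line 889. In line 682 it was at 8.88 in the untreated and 10.3 in the mock library, so the library labelled dox (Mock) lay with the untreated libraries. It was kept in the control arm, where the study placed it. On plastic, Smad4 was at 1.54 and 73.6 in line 560, at 2.99 and 18.1 in line 700 and at 4.76 and 48.9 in line 889. Rebuilt depth ran from 14529322 to 16339410 reads among the BME libraries and from 17010169 to 21055212 among those on plastic. The organoids carried the epithelial keratins Krt8, Krt18 and Krt19 at high levels, and the summed FPKM of 8 epithelial markers was 3892 to 4886 in the untreated, 4594 in the mock and 7511 to 9520 in the dox libraries of BME.

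Avil, Neurog3, Pou2f3 and Trpm5 were the 4 genes expressed in more than traces. Avil exceeded 1 FPKM in 12 of 12 libraries, Neurog3 in 6, Pou2f3 in 5 and Trpm5 in 1. Ranked among all listed genes by mean level in BME, Avil stood at percentile 58.6, Neurog3 at 58.2, Pou2f3 at 57.3 and Trpm5 at 51.5. On plastic these positions were 70.0 for Avil, 51.8 for Neurog3, 44.7 for Pou2f3 and 43.3 for Trpm5. The other 5 genes never reached 1 FPKM in any library.

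**Figure D1:**
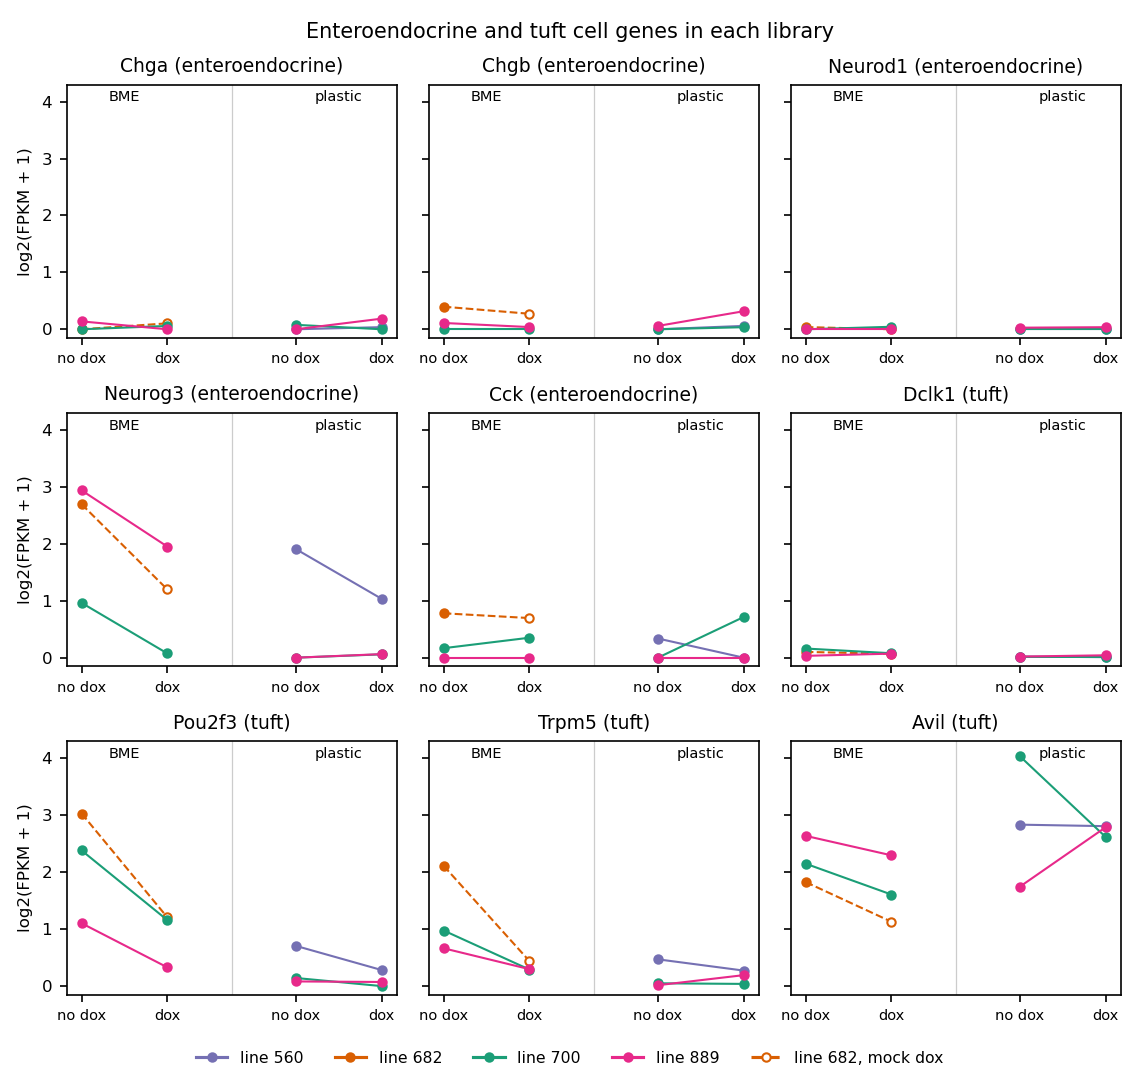
Level of each of the 9 genes as log2(FPKM + 1) on the y axis, in 1 panel per gene, without and with dox in BME (left of each panel) and on plastic (right). Points are libraries, lines join the libraries of 1 organoid line, and the open point on a dashed line is the mock library of line 682; untreated libraries of Neurog3, Pou2f3, Trpm5 and Avil in BME lie at 0.584 FPKM or above, while Neurog3 is at 1 read in dox line 700 and the other 5 genes stay at or below 0.717 FPKM.

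Neurog3, the factor that commits progenitors to the enteroendocrine fate, exceeded 1 FPKM in 4 of 6 BME libraries and in 2 of 6 plastic libraries. Line 682 was in BME only and line 560 on plastic only, and levels were not tested between the environments. Its gene lies on chromosome 10 (61595838 to 61597511, plus strand, NCBIM37, the assembly also called mm9). In untreated BME organoids it was at 5.48 FPKM in line 682 (118 reads), 0.949 in line 700 (20 reads) and 6.67 in line 889 (155 reads). It was at 1.30 in the mock library (27 reads), 0.0531 in the dox library of line 700 (1 read) and 2.87 in that of line 889 (65 reads). Each treated library was below its own untreated library, yet the dox library of line 889 was above untreated line 700, so dox and control libraries overlapped. The untreated to treated ratio was 4.23 in the mock pair (95% interval 2.76 to 6.68), 17.9 in line 700 (2.86 to 740.4, on 20 against 1 reads) and 2.33 in line 889 (1.73 to 3.16), where the interval is exact binomial and covers counting error of 1 library against another. On the log2(FPKM + 1) scale the mean difference of both dox pairs was −0.94 ± 0.07 (SD, n = 2), and that of the mock pair was −1.50. The closeness of the dox pairs depends on the pseudocount, since with 0.1 in place of 1 the differences were −2.78 in line 700, −1.19 in line 889 and −1.999 in the mock pair.

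On plastic, Neurog3 was at 2.75 FPKM without dox (81 reads) and 1.05 with dox (31 reads) in line 560. In lines 700 and 889 it had 0 reads without dox and 1 read with dox, where 3 reads, the limit that a count of 0 allows, would correspond to 0.1004 to 0.1323 FPKM across the plastic libraries. Line 560 was thus the only plastic line with a measurable level, and the pair difference there was −0.87 on the log2(FPKM + 1) scale. The exons of Neurog3 share 273 of 1540 bases (17.7%) with the antisense gene 2010107G23Rik, and the strand setting of the libraries is not given in the sources used here, so reads in that stretch cannot be assigned to either gene.

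Neurod1, the factor downstream of Neurog3, was close to undetected. Its gene lies on chromosome 2 (79292678 to 79296908, minus strand). It had 1 read in each of 4 libraries and 0 in the other 8, or 4 reads in all, and its highest level was 0.031 FPKM. Libraries with a clear level of Neurog3 therefore held at most 1 read of Neurod1.

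The products of mature enteroendocrine cells were likewise at traces. Chga (chromosome 12, 103793179 to 103803237, plus strand) was above 0 in 6 of 12 libraries with at most 4 reads and 0.138 FPKM. Chgb (chromosome 2, 132607014 to 132620815, plus strand) was above 0 in 8 libraries and highest in untreated line 682 in BME, at 0.317 FPKM and 11 reads. Cck (chromosome 9, 121398943 to 121404807, minus strand) was above 0 in 6 libraries, at up to 0.717 FPKM but with no more than 6 reads, since its transcript is short. Over all 12 libraries Chga had 13 reads, Chgb 36 and Cck 23. The libraries of line 682 in BME held 6 and 5 of the Cck reads and 11 and 7 of the Chgb reads, and the dox library of line 889 on plastic held 9 reads of Chgb. On plastic Chgb was higher with dox in each line, at 0 and 2 reads in line 560, 0 and 1 in line 700 and 2 and 9 in line 889, where the ratio was 5.93 with a 95% interval of 1.23 to 56.4. Without the minimum of 0.5 FPKM its limma difference on plastic was 0.12 (SE 0.079, adjusted p = 0.816). Cck had 6 reads with dox and 0 without in line 700 on plastic, a level at least 2.32-fold higher by the floor of 3 reads, but 0 with dox and 3 without in line 560. Chga had 4 reads with dox and 0 without in line 889 on plastic, at least 1.76-fold higher by the same floor. The intervals of the other ratios that could be formed for these 3 genes included 1.

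**Figure D2:**
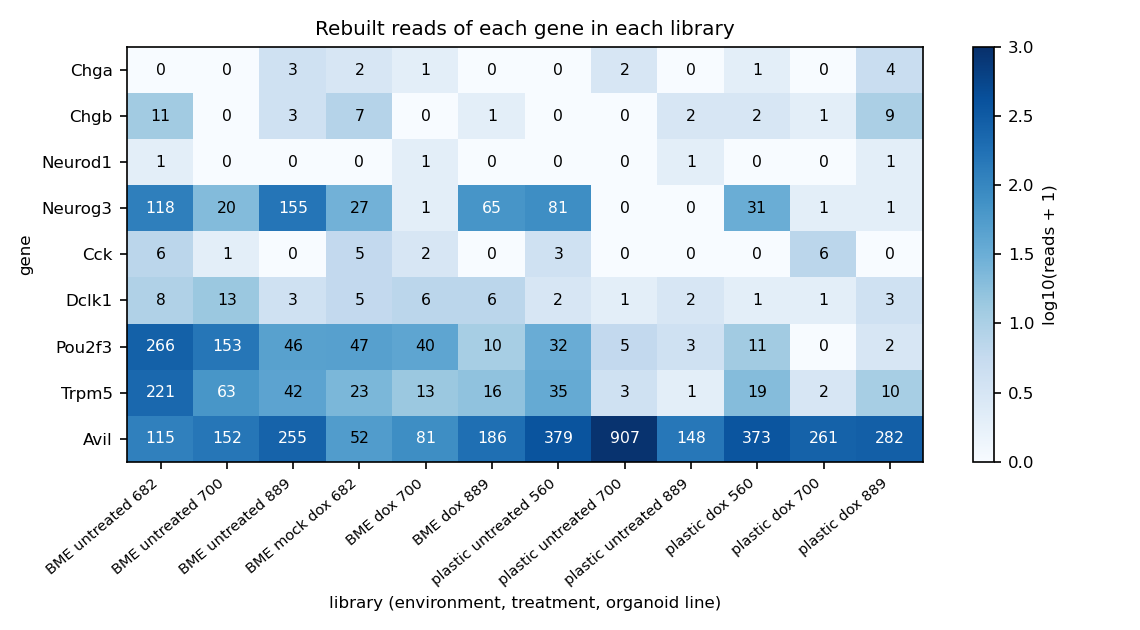
Rebuilt reads of each of the 9 genes (rows) in each of the 12 libraries (columns), printed in the cell and shaded by log10(reads + 1). Chga, Chgb, Neurod1, Cck and Dclk1 hold between 0 and 13 reads in every library, while Avil holds 52 to 907.

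Pou2f3, the factor required for the tuft lineage, was expressed in untreated BME organoids of each line. Its gene lies on chromosome 9 (42932022 to 43018452, minus strand). It was at 7.18 FPKM in untreated line 682 (266 reads), 4.22 in line 700 (153 reads) and 1.15 in line 889 (46 reads). The mock library was at 1.31 (47 reads), and the dox libraries were at 1.23 in line 700 (40 reads) and 0.256 in line 889 (10 reads). Both dox libraries and the mock library were below their own untreated library, but the dox library of line 700 was above untreated line 889. The untreated to treated ratio was 5.48 (95% interval 4.01 to 7.64) in the mock pair, 3.42 (2.40 to 4.97) in line 700 and 4.48 (2.23 to 9.96) in line 889. The mean difference of the dox pairs was −0.999 ± 0.318 on the log2(FPKM + 1) scale (SD, n = 2), and the mock pair differed by −1.82.

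On plastic Pou2f3 was low throughout. It was at 0.631 FPKM (32 reads) and 0.216 (11 reads) without and with dox in line 560, and at no more than 5 reads in lines 700 and 889. The mean over these 6 libraries was 0.177 FPKM, below the minimum of 0.5 that a gene needed to be tested. The pair differences on the log2(FPKM + 1) scale were −0.42, −0.14 and −0.01 in lines 560, 700 and 889, and outside line 560 they rest on 5 against 0 and 3 against 2 reads.

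Trpm5, the channel at the end of the tuft cell signaling cascade, had the same order of levels across untreated BME lines as Pou2f3. Its gene lies on chromosome 7 (150255058 to 150280547, minus strand). It was at 3.32 FPKM in line 682 (221 reads), 0.967 in line 700 (63 reads) and 0.584 in line 889 (42 reads) without dox. The mock library was at 0.357 (23 reads), and the dox libraries were at 0.223 in line 700 (13 reads) and 0.229 in line 889 (16 reads). The dox libraries lay below the whole control arm here, the mock library included. Such a separation was found for 5.83% of the 12996 genes tested in BME, and among the 4 tested marker genes for Trpm5 alone, while the opposite separation was found for 6.33% of genes and for 0 of the 4. Trpm5 passed the minimum of 0.5 FPKM through its untreated libraries, so nothing is read from this separation. The untreated to treated ratio was 9.31 (95% interval 6.05 to 15.0) in the mock pair, 4.33 (2.36 to 8.59) in line 700 and 2.56 (1.41 to 4.87) in line 889.

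On plastic Trpm5 was at 0.385 FPKM (35 reads) without and 0.208 (19 reads) with dox in line 560, and between 1 and 10 reads in the other 4 libraries. As with Neurog3 and Pou2f3, line 560 held most of its plastic reads without dox. The pair differences were −0.20, −0.01 and 0.18 on the log2(FPKM + 1) scale in lines 560, 700 and 889, so the direction differed between lines. The exons of Trpm5 share 220 of 6398 bases (3.4%) with Tssc4 on the other strand, which had pair differences of 0.11, −0.11 and 0.11 in lines 682, 700 and 889 in BME and of −1.25, −0.47 and −1.25 in lines 560, 700 and 889 on plastic.

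Avil, which encodes advillin, had the highest mean of the 9 genes over the 6 libraries of each environment and was the only 1 above 1 FPKM in every library. In untreated BME organoids, however, its mean of 3.74 ± 1.36 FPKM (SD, n = 3) was below those of Neurog3 (4.37 ± 3.02) and Pou2f3 (4.18 ± 3.01), within the spread between lines. Its gene lies on chromosome 10 (126437765 to 126458050, plus strand), and its promoter is the window printed above with the pair of octamer matches. In BME it was at 2.55 FPKM and 1.19 in the untreated and mock libraries of line 682, at 3.44 and 2.05 without and with dox in line 700, and at 5.23 and 3.91 in line 889. Each treated library was again below its partner, while the lines themselves differed enough that the groups overlapped. The untreated to treated ratio was 2.14 (95% interval 1.53 to 3.03) in the mock pair, 1.68 (1.27 to 2.23) in line 700 and 1.34 (1.10 to 1.62) in line 889.

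On plastic the dox difference of Avil had opposite directions between lines. It was at 6.14 FPKM without and 6.01 with dox in line 560, at 15.4 and 5.14 in line 700 and at 2.36 and 5.92 in line 889. It was therefore 2.997 times lower with dox in line 700 and 2.51 times higher in line 889, with 148 to 907 reads behind each value, and the 3 dox libraries lay closer together than the untreated libraries. The mean pair difference was −0.13 ± 1.23 on the log2(FPKM + 1) scale (SD, n = 3). The difference of line 560 was −0.03 here and 0.33 on the TPM scale. Tsfm, which shares 165 of the 3398 exon bases of Avil (4.9%) on the other strand, had pair differences of −0.65, −0.13 and −0.35 in lines 560, 700 and 889 there and of −0.18, −0.26 and 0.18 in lines 682, 700 and 889 in BME.

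Dclk1, a kinase widely used as a tuft cell marker, was at traces, unlike Pou2f3, Trpm5 and Avil. Its gene spans 55046448 to 55342986 on chromosome 3 (plus strand). It was above 0 in 12 of 12 libraries, but its highest level was 0.118 FPKM, in untreated line 700 in BME, with about 13 reads. Its reads summed to 51 over all libraries, and since they did not come out whole (off by up to 0.481 of a read) they were rounded. In BME it had 3 to 13 reads and on plastic 1 to 3.

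To ask whether dox changed these genes beyond the spread between libraries, the dox arm was set against the control arm with limma on log2(FPKM + 1) across all genes with a mean of at least 0.5 FPKM. In BME 4 of the 9 genes were tested and 0 were called at an adjusted p under 0.05 with a change over 1, where 0.0231% of the 12996 genes tested were called. By the same fit (Benjamini-Hochberg adjusted p), Pou2f3 differed by −1.19 (SE 0.61, adjusted p = 0.959), Neurog3 by −0.94 (SE 0.77, adjusted p = 0.959), Trpm5 by −0.75 (SE 0.48, adjusted p = 0.959) and Avil by 0.02 (SE 0.44, adjusted p = 0.998). With organoid line as a block, which compares each dox library with its own untreated library, limma gave −0.999 for Pou2f3, −0.94 for Neurog3, −0.53 for Trpm5 and −0.44 for Avil, and again 0 of the 4 were called. The sign for Avil thus changed with the block. At an unadjusted p under 0.05 with a change over 1, limma without the block called 0.954% of all genes in BME and 0 of these 4. Without the minimum of 0.5 FPKM, limma gave differences in BME of −0.24 for Cck, −0.18 for Chgb, −0.031 for Chga, −0.016 for Dclk1 and 0.012 for Neurod1, each with an adjusted p of 0.966 to 0.971.

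Neurog3, Pou2f3, Trpm5 and Avil were each lower in the treated library of each BME line, the mock pair included. Trpm5 passed the minimum of 0.5 FPKM through its untreated libraries (mean 1.63, against 0.357 in the mock and 0.226 in the dox libraries), and the 5 genes under the minimum had differences of either sign or 0, so the count of 4 gives no support of its own. A lower level in each line held for 18.4% of all tested genes and a higher level in each for 17.6%, and a lower level in both dox pairs held for 29.5%. A difference below −0.5 in each of the 3 pairs was found for Neurog3 and Pou2f3 and for 0.623% of all tested genes. That size was picked after the values were seen, so this count gives no support either. For Pou2f3, Trpm5 and Avil the pair of line 682, in which Smad4 differed by 0.19, showed the largest of the 3 differences with a pseudocount of 1 or 0.1. For Neurog3 it did so with 1, but with 0.1 the largest was that of line 700. The labels of that library conflict, and whether it carried the SMAD4 construct or received dox is not clear from them, so an effect of dox and a difference between cultures cannot be told apart in this pair. In bulk RNA, fewer cells of a type and less RNA per cell cannot be told apart either. The summed epithelial markers were higher in the treated library of each BME line, at 3892 FPKM untreated and 4594 mock in line 682, 4886 and 7511 without and with dox in line 700 and 4864 and 9520 in line 889, and their part in these differences was not tested.

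**Figure D3:**
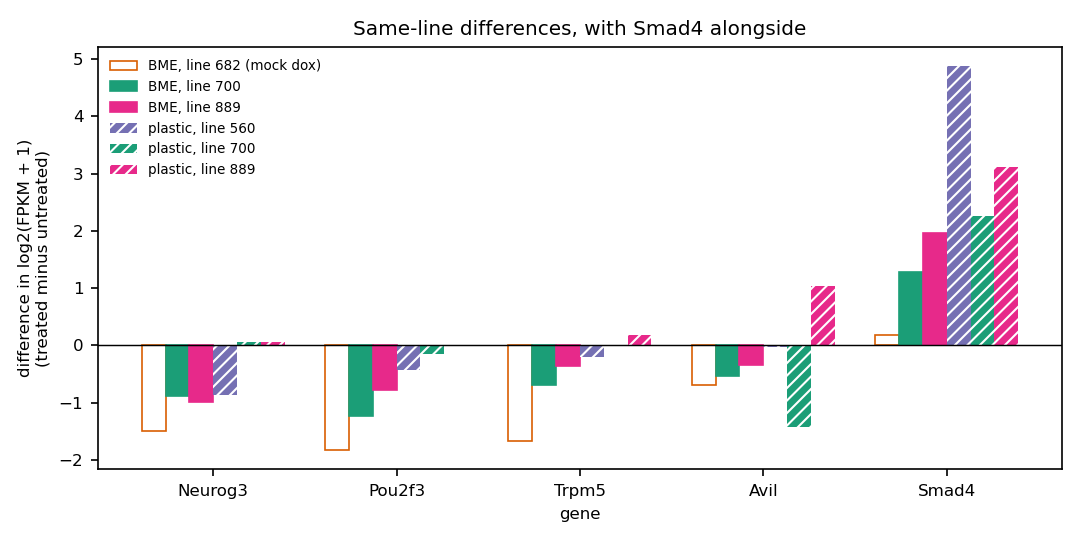
Difference in log2(FPKM + 1) between the treated and the untreated library of the same line (y axis) for the 4 expressed genes and Smad4 (x axis), as bars from 0, plain for BME, hatched for plastic and unfilled for the mock pair of line 682. On this scale the 4 genes lie below 0 in each BME pair, with the mock pair lowest, while Smad4 is higher by 0.19 in the mock pair and by 1.28 to 4.88 in the dox pairs.

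On plastic 2 of the 9 genes were tested, and limma called 0 of them where 0.0324% of 12333 genes were called. The fit gave −0.25 for Neurog3 (SE 0.59, adjusted p = 0.949) and −0.13 for Avil (SE 0.54, adjusted p = 0.973). Neither was lower in each of the 3 lines, which held for 18.7% of tested genes, or higher in each, which held for 18.6%. The dox libraries lay all below the untreated libraries for 7.26% of tested genes and all above for 7.87%, in each case for 0 of these 2 markers. At an unadjusted p under 0.05 with a change over 1, limma called 3.64% of genes on plastic and 0 of the 2. Neurog3 passed the minimum on plastic through line 560, mainly its untreated library at 2.75 FPKM (mean 0.917 untreated and 0.378 with dox). Nothing is read from its fit or direction there, or from its difference between environments below. The difference in the dox change between plastic and BME was tested with an interaction term in limma over 11977 genes, of which 0.0% were called, with 1.33% at an unadjusted p under 0.05 and a difference over 1. It was 0.69 for Neurog3 (SE 1.04, adjusted p = 1.00) and −0.15 for Avil (SE 0.76, adjusted p = 1.00), within its error for both. For Neurog3 it was 1.92 with a pseudocount of 0.1 and 0.998 in lines 700 and 889 only, each with an adjusted p of 1.00 by limma. Pou2f3 and Trpm5 were under the minimum on plastic, and without it the interaction was 0.995 for Pou2f3 (SE 0.69) and 0.74 for Trpm5 (SE 0.51), with a limma adjusted p of 1.00 for both.

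Markers of other cell types were low next to those of epithelium. Neuron and glia markers, which matter here because neurons also express chromogranins, summed to 1.38 to 2.24 FPKM over 8 genes in untreated, 1.08 in mock and 1.25 to 1.54 in dox libraries of BME, with 2 to 4 of the 8 at 0. Fibroblast and muscle markers summed to 1.57 to 4.13 in the untreated, 1.12 in the mock and 1.12 to 6.52 in the dox libraries. Immune markers, among them those of hematopoietic cells that share tuft genes, summed to 8.49 to 17.4, 8.23 and 7.03 to 12.01, mainly from Cd68. On plastic, neuron and glia markers summed to 3.51 to 10.9 without and 1.22 to 3.37 with dox, mainly from the receptor Ret. Immune markers there summed to 3.69 to 16.3 without and 3.90 to 39.5 with dox, and fibroblast and muscle markers to 0.371 to 0.646 and 0.289 to 0.578. Their part in the levels of the 9 genes was not tested.

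Other enteroendocrine transcription factors were examined as a list of 12 genes. In both environments 2 passed the minimum, Foxa2 and Insm1, and limma called 0 of them in either. Insm1, a zinc-finger factor of endocrine differentiation, was at 0.840 and 0.297 FPKM in the untreated and mock libraries of line 682 in BME, at 0.316 and 0.0252 without and with dox in line 700 and at 1.64 and 3.19 in line 889. On plastic it was at 0.679 and 5.16 in line 560, 0.0339 and 0.157 in line 700 and 0.0159 and 11.5 in line 889. It was thus higher with dox in each plastic line, at 548 reads against 1 in line 889, but its limma change of 1.89 (SE 0.83) had an adjusted p of 0.617. It passed the minimum on plastic through its dox libraries, with an untreated mean of 0.243 FPKM. Foxa2, a forkhead factor found in many endodermal cells, was at 7.35 to 22.3 FPKM in BME and 2.65 to 31.9 on plastic, with pair differences of either sign in both. The remaining 10 factors had means under 0.5 FPKM in both environments, and of these Pax4 reached 11 reads, Isl1 11, Myt1 17 and Lmx1a 22.

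Hormone genes gave 3 of 13 tested in BME and 2 on plastic, and limma called 0 in both. In BME 6 of them, glucagon (Gcg), Gip, Sst, Nts, Tac1 and Insl5, were listed at 0 in all 6 libraries, and are named for that reason. On plastic 2 of the 13 were at 0 in all libraries, while Nts had 1 to 7 reads, Gcg 5 reads in 1 library and Vip up to 23 reads. Ghrl (ghrelin) had 1 to 6 reads and Sct (secretin) 0 to 10 in BME, and Tph1, which makes the serotonin precursor, had at most 4. Ddc, a decarboxylase that makes serotonin in these cells but that enterocytes also express, was at 15.4 to 29.7 FPKM and higher in each treated library of BME. Its limma change in BME was 0.64 (SE 0.17, adjusted p = 0.959).

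Genes of the secretory granule gave 2 of 13 tested in BME and 4 on plastic, again with 0 called by limma. Cpe, the carboxypeptidase that trims prohormones, had the highest mean over the 6 libraries of each environment, although in untreated BME organoids Pam, a peptide-amidating enzyme, was higher (27.9 FPKM against 15.2). On plastic it was at 29.6 and 232 FPKM without and with dox in line 560, 44.2 and 141 in line 700 and 73.7 and 442 in line 889. Every dox library lay above every untreated library, as it did for 7.87% of genes tested on plastic. Its limma change was 2.38 (SE 0.50) with an adjusted p of 0.290, and in BME 1.49 (SE 0.57, adjusted p = 0.959). Vgf, a granule peptide, was also higher with dox in each plastic line and reached 3.49 FPKM in line 889 (limma change 1.07, SE 0.36, adjusted p = 0.547), and it too passed the minimum through its dox libraries (untreated mean 0.332). Cplx2, a complexin of exocytosis, was at no more than 0.789 FPKM in BME and 0.970 on plastic. Chga and Chgb, whose products sit in the same granules, stayed at traces in these libraries.

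Tuft cell signaling and effector genes were examined as a list of 30, of which 29 were in the tables. In BME 11 were tested, 5 with a negative and 6 with a positive limma estimate, with 0 called and a median of 0.046 against −0.006 over all genes. On plastic 7 were tested, 3 negative and 4 positive, with 0 called and a median of 0.282 against 0.009. The highest were Itpr3 (an inositol trisphosphate receptor), Ptgs1 (cyclooxygenase 1), Ltc4s (leukotriene C4 synthase) and Ptpn6 (a phosphatase). Itpr3 was at 32.6 to 57.2 FPKM in BME, above Pou2f3 in every library there, and Ptgs1 was at 6.07 to 21.1. Both genes are also expressed outside tuft cells. Ltc4s was lower with dox in each plastic line, from 33.1 to 5.24 FPKM in line 560, 18.5 to 6.21 in line 700 and 27.7 to 12.02 in line 889 (limma change −1.68, SE 0.35, adjusted p = 0.290).

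Among the tested tuft genes in BME, Plcg2, Itpr3 and Ptpn6 were higher and Il17rb and Spib were lower in the treated library of each line, that is 3 and 2 of 11, beside 17.6% and 18.4% of all tested genes. Several further tuft genes are named after their values were seen. Spib, a transcription factor of tuft and some immune cells, was at 2.89 and 0.301 FPKM in line 682, 0.941 and 0.0831 in line 700 and 0.471 and 0.0691 in line 889 in BME, in the order untreated and treated. It was lower in each pair, the mock pair included, and its limma change was −0.86 (SE 0.46, adjusted p = 0.959). It passed the minimum through its untreated libraries (mean 1.43 FPKM, against 0.301 in the mock and 0.0761 in the dox libraries), so nothing is read from its direction. Gnat3 (gustducin) had 9, 1 and 3 reads in the untreated libraries of lines 682, 700 and 889 and 0 in each treated library of BME, and Rgs13 had 15, 4 and 5 against 0, 0 and 1. They are among 18 tuft genes under the minimum in BME, of which 7 were lower and 0 higher in each line and 11 were neither. The 7 had no more than 19 reads in any library. The share of all genes under the minimum that were lower or higher in each line was not counted, so nothing is read from the 7. Gng13, a G protein subunit, and Hmx2 had higher means in the dox than in the untreated libraries of BME, at 2.39 against 1.90 FPKM and 0.516 against 0.376. The 2 dox libraries of Gng13 were the lowest and the highest of the 6, at 0.288 and 4.49 FPKM, so 1 library carries its mean. Gng13 had 1 to 15 reads per library and Hmx2 no more than 22, and no direction is read from either. On plastic 22 were under the minimum, with 2 lower, 2 higher and 18 neither, again without a share over all such genes. Il25, the cytokine by which tuft cells signal to lymphoid cells, was listed at 0 in all 12 libraries. Hpgds, a prostaglandin D synthase, was at 0.415 and 10.1 FPKM in line 560, 0.187 and 0.487 in line 700 and 0.102 and 14.6 in line 889 on plastic without and with dox (limma change 2.37, SE 0.85, adjusted p = 0.567). It passed the minimum through its dox libraries, with an untreated mean of 0.235 FPKM.

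Regulators of secretory lineage commitment gave 9 of 10 tested in BME and 8 on plastic, with 0 called by limma. In BME 6 had a negative and 3 a positive estimate. Sox4, which is linked to both lineages, was at 94.0 and 52.6 FPKM in line 682, 63.7 and 27.9 in line 700 and 86.0 and 60.4 in line 889, lower in each treated library (limma change −0.80, SE 0.37, adjusted p = 0.959). Atoh1, the master factor of secretory cells, is named after its values were seen. It was at 4.07 FPKM untreated and 0.538 in the mock library of line 682, 2.26 and 0.632 without and with dox in line 700 and 7.41 and 2.60 in line 889 (limma change −0.66, SE 0.70, adjusted p = 0.959). On plastic it was at 4.88 and 4.10 in line 560 but under 0.3 in the other 4 libraries, so line 560 was again the plastic line with a clear level, as for Neurog3. In all, Atoh1, Sox4, Dll4 and Bhlha15 were lower and Hes1, Sox9 and Dll1 were higher in the treated library of each BME line, 4 and 3 of 9 beside 18.4% and 17.6% of all tested genes, with Atoh1, Dll4, Bhlha15 and Dll1 named for this after their values were seen. The pair differences in lines 682, 700 and 889 were 0.48, 0.37 and 0.50 for Hes1 and 0.24, 0.16 and 0.056 for Sox9, although the limma estimate for Sox9, which does not pair the lines, was −0.23 (SE 0.42, adjusted p = 0.973). Hes6 was at 56.2 to 88.0 FPKM in BME, with pair differences of −0.18, −0.19 and 0.39.

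**Figure D4:**
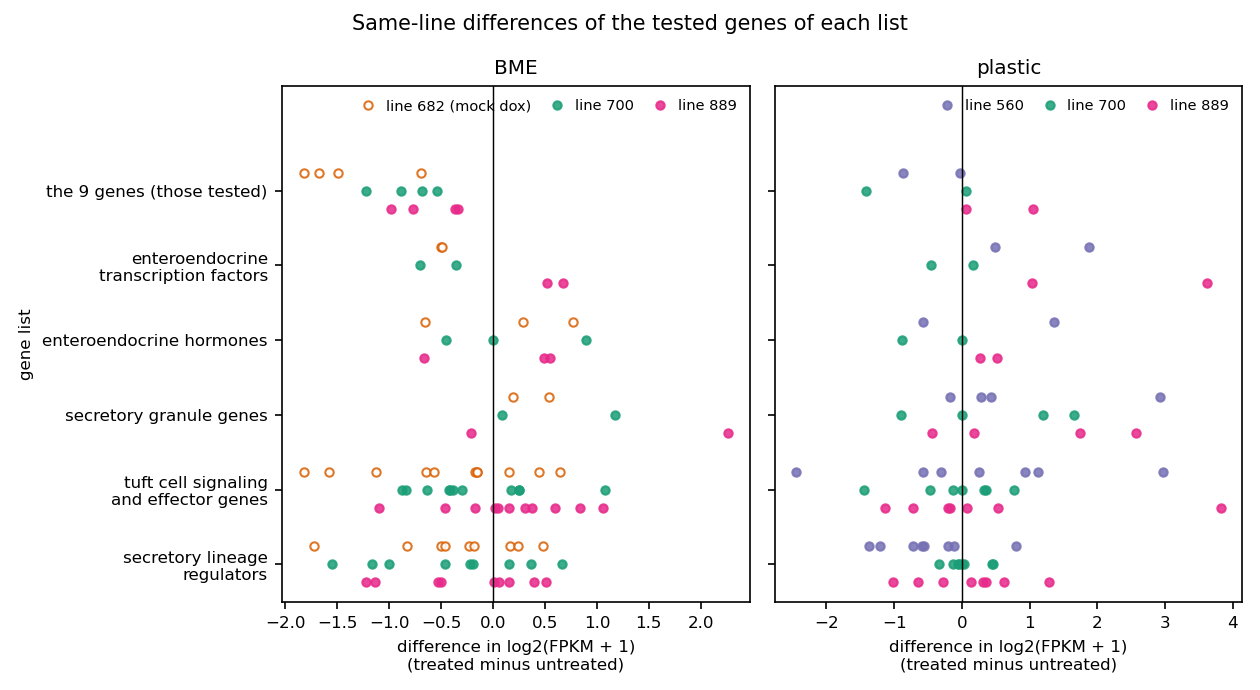
Difference in log2(FPKM + 1) between the treated and the untreated library of the same line (x axis) for each tested gene (1 point per line) of the 9 markers and of the 5 further lists (y axis), in BME on the left and on plastic on the right. Open points are the mock pair, and the 4 tested markers lie below 0 in each BME line, as do 18.4% of all tested genes; how the lists differ from each other was not tested.

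The genes whose levels ran most alike were sought for Neurog3 and Avil, the members tested in both tables, by the mean over both tables of Pearson's r across 6 libraries. For Neurog3 these were Oas1f (r = 0.996 in BME and 0.973 on plastic), Jakmip1 (0.995 and 0.941) and Rangrf (0.929 and 0.990). For Avil they were Grhl3 (0.984 and 0.831), Slc35c1 (0.816 and 0.960) and Cfb (0.885 and 0.759). These are the highest of 11977 genes over few libraries that share lines and treatments, and they are given as a description. On plastic Neurog3 had more than 1 read in the libraries of line 560 alone, so its r there rests on those 2 libraries.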

How the data were processed

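RNA-Seq of 12 organoid libraries was deposited as 1 table per environment. The FPKM values were made by the authors with kallisto and DESeq2, with mm9 named in the submitters' processing notes; versions and annotation are not given in the sources used here. Each table was normalized on its own 6 libraries, so levels were not tested between tables. The authors' comparison tables hold a mean normalized count (a deposited signal over libraries), which was used, and fold changes, scores and p-values, which were not.

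Whole reads were rebuilt per library from FPKM and the mean normalized count. In each library 88.0% to 90.5% of values under 8 normalized counts came out whole within 0.05 reads. Ratios of reads carry exact binomial 95% intervals, which cover counting error only, and a floor of 3 reads.

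Groups came from the labels, which conflict for the mock library of line 682. Its title and genotype read as induced and its treatment as dox (Mock). Genes whose mean FPKM reached 0.5 were tested (12996 in BME, 12333 on plastic) on log2(FPKM + 1), a scale that understates changes of low genes. The two-sided test was that of limma 3.58.1 in R 4.3.3 (lmFit, then eBayes with its trend option), with Benjamini-Hochberg adjustment over all genes tested. Calls needed an adjusted p under 0.05 with a change over 1 in either direction. The method was tested on simulated data. The main design has no block, since the study's methods name none. Libraries of a line pair by organoid line: their deviations from group means correlated in each line (r = 0.70 and 0.68 in BME, 0.46, 0.61 and 0.25 on plastic).

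The members and lists were chosen with earlier results of these data known. Named from each list were the 4 genes of highest mean FPKM, and others were named after their values were seen. Alternatives were a pseudocount of 0.1, no filter, a TPM scale, the line block, limma-voom on rebuilt reads with the authors' size factors, leaving out each library and counting the mock library with dox. The last combined with the block or voom, and the TPM and pseudocount settings for levels and pair differences, were chosen after seeing the data.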

Additional observations from a re-analysis of the deposited data

Results flagged for a closer look

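Neurod1 stood out in 1 of the 4 control libraries in BME. It was at 0.0271 FPKM in untreated line 682 and at 0 in the other 3, a gap larger than the 95% critical value of Dixon's test allows for 4 samples. The value rests on 1 read, and with the other 3 libraries at 0 any value above 0 would stand out by this measure. Chance marks about 1 in 20 groups where values are continuous, a rate that does not hold for counts of 0 and 1.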

How the results depend on the processing

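Over 14 alternatives in BME, limma's adjusted p for Neurog3, Pou2f3, Trpm5 and Avil ranged from 0.142 to 1.00, and over 11 on plastic from 0.747 to 1.00 for Neurog3 and 0.795 to 1.00 for Avil, so that 0 of the 117 fits of single members were called. The estimates for Pou2f3 (−2.21 to −0.77) and Trpm5 (−2.18 to −0.40) in BME kept their direction throughout, while those of Avil and Neurog3 did not. Trpm5 passed the minimum of 0.5 FPKM through its untreated libraries, so nothing is read from its constant direction. For Neurog3 the BME estimate (−0.94) was −2.40 by voom, −2.26 by voom with the mock library counted with dox and −2.02 with a pseudocount of 0.1, and it ranged from −1.87 to 0.0024 when 1 library was left out, with the highest value without the dox library of line 700. On plastic it was 0.85 by voom and −0.58 to 0.39 when 1 library was left out, highest without untreated line 560. For Avil in BME it was −0.032 on the TPM scale, where the median of all genes shifted to −0.07, −0.33 to 0.36 when 1 library was left out (−0.33 without the dox library of line 889, −0.25 without the mock library, −0.02 without untreated line 682), −0.53 with the mock library counted with dox and −0.75 with voom added to that. On plastic the Avil estimate was −0.70 to 0.45 when 1 library was left out, highest without untreated line 700. Its difference between environments (−0.15) was 0.25 in lines 700 and 889 only and 0.12 without the mock library, and that of Neurog3 ranged from 0.69 to 1.92. The mean Trpm5 level in the dox libraries of BME was 0.219 on the TPM scale.

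With organoid line as a block, which pairs the libraries, the Avil estimate was −0.44 in BME and 0.31 for the difference between environments. The block gave 0 genes called in BME and 7 on plastic, and with the mock library counted with dox it gave 0 in BME and −0.53 for Avil. In that last fit, added after each pair was seen to be lower and so no independent support, limma's adjusted p was 0.142 for Neurog3 (−1.12), 0.180 for Pou2f3 (−1.27), 0.278 for Avil and 0.368 for Trpm5 (−0.91). At an unadjusted p under 0.05 with a change over 1, the same fit held Neurog3 and Pou2f3 among 159 of 12996 genes. The block changed no call of a member.

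Counts over all genes were small and unstable. In BME 3 genes were called, against 1 with a pseudocount of 0.1, 1 by voom, 0 with the mock library counted with dox (also by voom) and 0 to 35 when 1 library was left out, 35 without the dox library of line 700. On plastic 4 were called, against 10 with a pseudocount of 0.1, 0 without the filter, 11 by voom and 0 to 46 when 1 library was left out, 46 without the dox library of line 700 and 2 without that of line 889. For the difference between environments 0 were called by limma (159 at an unadjusted p under 0.05 and a change over 1), and 5 without the filter. Among the lists, 1 tuft cell gene was called on plastic without the dox library of line 700. The cause of these shifts was not tested. Depth limits what can be said of Chga, Chgb, Neurod1, Cck and Dclk1, which had at most 13 reads in a library.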
